A study of Mus musculus with 4 samples.

Results

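The comparison described here is that of the mouse liver library prepared after concanavalin A (ConA) and FICZ (ConA+FICZ, 2555 cells) with the library prepared after ConA and vehicle (ConA+Veh, 2779 cells), which together hold 5334 of the 9300 cells of the series. Both libraries came from C57BL/6 mice aged 8 to 10 weeks, and their livers were processed at 24 hours after ConA into mononuclear cells, enriched on a Percoll gradient and measured with the 10x Genomics 5′ assay. Both groups carried the ConA injury, so that the comparison concerns FICZ on top of it, and the series has 1 library per group. The dose, route and vehicle of FICZ and the number of mice behind a library are not given in the sources used here. The other libraries, of untreated mice (Naïve, 2086 cells) and of mice given ConA and TCDD (ConA+TCDD, 1880 cells), are quoted only as values beside single results.

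ConA is a plant lectin that crosslinks surface sugars of T cells and, when injected into mice, causes a hepatitis driven by T cells, NKT cells and their cytokines. FICZ is a tryptophan derivative that binds the aryl hydrocarbon receptor (AhR), a transcription factor that waits in the cytosol with Hsp90 and the co-chaperone Ptges3, moves to the nucleus with its ligand, pairs with Arnt and switches on genes such as *Cyp1a1*. CYP1 enzymes degrade FICZ, whereas the dioxin TCDD persists in tissue.

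Cells were sorted into 16 marker gates. A cell belonged to a gate when it held at least 3 different markers of that cell type and more than of any other type. It belonged to the hepatocyte or erythroid gate when at least 10% of its UMIs (unique molecular identifiers, 1 per captured RNA molecule) came from that gene list. For the NK gate a cell also had to hold no UMI of the T marker *Cd3e*, and was otherwise left ungated. For each gene with at least 100 UMIs in both libraries together, UMIs were summed over the cells and expressed as counts per 1000000 UMIs (CPM), and a gene was past the fold when the CPM ratio of ConA+FICZ to ConA+Veh was at least 2 in either direction. With 1 library a side no test between the treatments was possible, and the 95% intervals given throughout cover counting error only. The libraries held 16017797 UMIs for ConA+FICZ and 19252211 for ConA+Veh, with medians of 3147 and 3984 UMIs per cell, and they shared 8 cell barcodes. Cells with under 200 genes or over 10% mitochondrial UMIs made up 8.45% of ConA+FICZ and 16.7% of ConA+Veh.

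Hepatocyte RNA was far more abundant in ConA+FICZ than in ConA+Veh, both in droplets of its own and inside the leukocyte gates. The hepatocyte list took 0.658% of all UMIs of ConA+FICZ and 0.0459% of ConA+Veh. In ConA+FICZ, 196 droplets (7.67%, 95% Clopper-Pearson interval 6.67 to 8.77%) fell in the hepatocyte gate, against 7 droplets (0.252%, 0.101 to 0.518%) in ConA+Veh. The 196 droplets were shallow, with a median of 951 UMIs. The same genes were found in leukocytes: 82.6% of T-gate cells and 81.5% of B-gate cells of ConA+FICZ held at least 1 UMI of the list, against 59.5% and 45.0% in ConA+Veh. The list made up 0.201% of neutrophil-gate UMIs in ConA+FICZ and 0.0292% in ConA+Veh, and in the macrophage gate 0.0773% and 0.0487%.

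The proportions among hepatocyte genes in the leukocyte gates of ConA+FICZ were close to those in its hepatocyte droplets for some genes and not for others. *Saa1*, which encodes the acute phase protein serum amyloid A1, gave 107 of every 1000 list UMIs in the hepatocyte gate, 117 in B, 94.1 in T, 109 in NK, 99.7 in neutrophil and 81.7 in macrophage cells. The fibrinogen gene *Fgb* gave 69.1 in the hepatocyte gate and 80.5, 67.6, 70.5, 76.6 and 66.7 in those gates. *Fabp1*, a fatty acid-binding protein gene of liver, gave 36.9 in the hepatocyte gate but 18.6, 13.1, 11.4, 18.1 and 10.8 in them, and the apolipoprotein gene *Apoa1* gave 46.02 and, in T cells, 25.5. *Orm1*, another acute phase gene, gave 60.2 in the hepatocyte gate and 132 in neutrophils. *Ass1*, a urea cycle gene of hepatocytes that immune cells also express, gave 3.96 in the hepatocyte gate but 196 in T and 247 in macrophage cells. Without *Ass1*, a step chosen after the data were seen, the list was 7.03 times as abundant in ConA+FICZ as in ConA+Veh in the T gate (340 against 48.4 CPM), 4.85 times in B, 4.93 times in NK, 7.09 times in neutrophil and 2.74 times in macrophage cells.

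**Figure D1:**
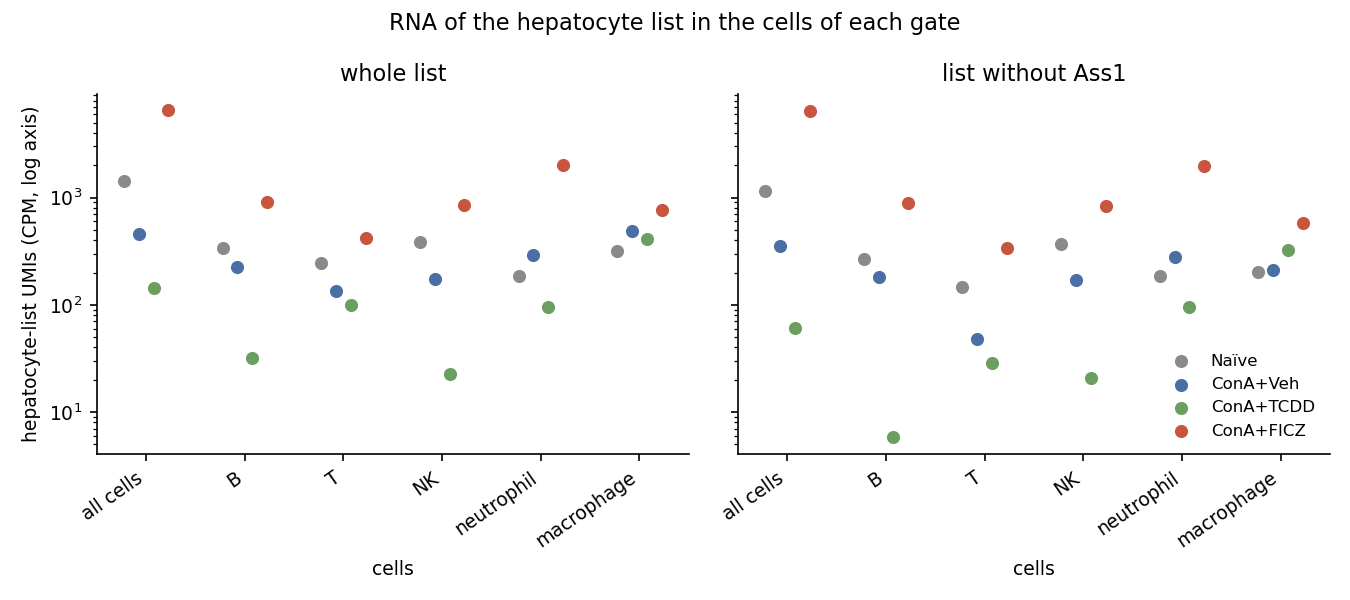
Points give the hepatocyte list in CPM (log axis) over all cells and in each leukocyte gate of the 4 libraries, for the whole list (left) and without Ass1 (right). ConA+FICZ is the highest of the 4 libraries in every column. Without Ass1 the T gate holds 340 CPM in ConA+FICZ and 48.4 CPM in ConA+Veh.

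From these proportions hepatocyte RNA was estimated at 0.301% of the UMIs of B cells, 0.139% of T, 0.277% of NK, 0.660% of neutrophil and 0.254% of macrophage cells in ConA+FICZ. The list UMIs used included *Ass1*, at 19.6% of them in T and 24.7% in macrophage cells, and *Orm1* in neutrophils. Where leukocytes make such genes themselves, the estimate and the shares of genes that rest on it are too high. Genes for which it accounted for at least 20% of the ConA+FICZ UMIs were set apart. Of 10360 genes over all cells, 255 (2.46%) were past the fold upward and 127 (1.23%) downward, and 131 of the 255 rises were set apart in this way. Within gates, 17 of 44 rises in B (0.681% of tested genes), 11 of 29 in T (0.369%), 5 of 40 in neutrophil (3.63%) and 1 of 32 in macrophage cells (1.76%) were set apart, and 0 of 6 in NK (0.356%). All 17 measured genes of the acute phase list rose over all cells, with a median log2 ratio of 3.97 where the median of all tested genes was 0.01. Most of them, such as *Saa1*, *Fgb* and *Orm1*, also belong to the hepatocyte list, so that their rise restates the excess of that list. *Lcn2*, another member, had 12395 of its 19218 ConA+FICZ UMIs in the neutrophil gate, and hepatocyte RNA accounted for 28.4% of the 19218.

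Genes of the AhR pathway came next, since FICZ is a ligand of that receptor. The largest ratio of the list over all cells was that of *Cyp1a1* (ENSMUSG00000032315), which encodes the cytochrome P450 that oxidizes AhR ligands. Its promoter is shown because it carries 1 copy of GCGTG, the core of the element that the AhR and Arnt bind. The 250 bases before the RefSeq start (GRCm38.p6, chr9:57697363-57697612, plus strand) are printed with the motif in capitals:
Cyp1a1: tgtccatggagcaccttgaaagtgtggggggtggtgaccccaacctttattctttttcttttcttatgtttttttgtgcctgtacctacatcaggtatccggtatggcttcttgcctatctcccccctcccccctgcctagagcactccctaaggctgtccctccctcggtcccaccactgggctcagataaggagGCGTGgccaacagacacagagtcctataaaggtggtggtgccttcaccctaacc
The motif GCGTG, or CACGC when read on the other strand, occurred in 28.2% of all 32851 promoter windows of this length. Of the 16 genes of the AhR list 12 had a window, and 7 of the 12 held the motif. They were *Cyp1a1*, *Ahrr*, *Tiparp*, *Cyp1b1*, *Lpcat2* and the partners *Arnt* and *Ptges3*. The windows of *Cyp1a2*, *Nqo1*, *Ugt1a6a*, *Il22* and *Nfe2l2* did not hold it. A match of 5 letters is a description of the window and not of binding.

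*Cyp1a1* had 104 UMIs in ConA+FICZ (6.49 CPM, 5.31 to 7.87) and 2 UMIs in ConA+Veh (0.104 CPM, 0.0126 to 0.375). With the 2 UMIs set to the floor of 3 counts, the log2 ratio was 5.38 (4.08 to 9.03). Of the 104 UMIs, 94 lay in 7 of the 33 endothelial-gate cells and the other 10 in 1 ungated cell. The endothelial gate, whose markers include the sinusoidal genes *Stab2* and *Clec4g*, thus held 561 CPM (454 to 687) in ConA+FICZ and 3.87 CPM (0.0981 to 21.6), from 1 UMI in 57 cells, in ConA+Veh. ConA+TCDD had 14 UMIs in 2 of 6 endothelial cells (489 CPM), and Naïve had 24 UMIs, all in 1 of 43 cells. Over all cells *Cyp1a1* was at 4.03 CPM in Naïve and 1.41 CPM in ConA+TCDD, so that untreated liver was nearer to ConA+FICZ than ConA+Veh was. No *Cyp1a1* UMI was found in the hepatocyte gate of either library, nor in any of the 5 leukocyte gates of ConA+FICZ.

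*Cyp1b1*, another xenobiotic-metabolizing P450, also lay mostly in endothelial cells. It had 26 UMIs in 6 of 33 endothelial cells of ConA+FICZ (155 CPM, 101 to 227) and 16 UMIs in 7 of 57 of ConA+Veh (62.0 CPM, 35.4 to 101). *Ahrr*, which encodes the repressor that the receptor induces, had 10 UMIs in 9 cells of ConA+FICZ and 0 in ConA+Veh, 5 of them in neutrophils. *Nqo1*, a quinone reductase, had 16 UMIs in ConA+FICZ and 11 in ConA+Veh, and its ratio was within counting error of 1.

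*Cyp1a1* excepted, the genes of the list with at least 100 UMIs stayed below the fold over all cells and in each leukocyte gate. *Ahrr*, *Cyp1b1*, *Nqo1* and *Il22* were among those that did not reach that minimum, so that nothing is said of their fold. Of the 16 genes of the list 9 had 100 UMIs over all cells, and *Cyp1a1* was the 1 past the fold, where 2.46% of all tested genes were past it upward. *Cyp1a1* reached the minimum only through its 104 UMIs in ConA+FICZ. *Ahr* was lower in ConA+FICZ, at 22.6 CPM against 31.6 CPM (log2 ratio −0.48, −0.67 to −0.29). *Tiparp*, a classic target that encodes a mono-ADP-ribosyltransferase, was at 37.0 and 33.8 CPM over all cells (0.13, −0.03 to 0.29). It was at 235 CPM (200 to 274) in ConA+FICZ neutrophils and 165 CPM (120 to 223) in ConA+Veh neutrophils, and in the macrophage gate at 66.5 and 109 CPM (log2 ratio −0.71, −1.32 to −0.12). *Lpcat2* was at 171 CPM in ConA+FICZ neutrophils and 108 CPM in ConA+Veh neutrophils (0.67, 0.06 to 1.32). *Il22*, a cytokine gene that the receptor promotes in T cells and innate lymphoid cells, had 16 UMIs in 1 ConA+Veh cell and none in ConA+FICZ. *Arnt*, *Ptges3* and *Hsp90ab1*, partners of the receptor, had log2 ratios of −0.29, 0.24 and −0.06.

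Among the leukocyte gates the neutrophils had the largest ratio of shares. The neutrophil gate held 261 cells of ConA+FICZ (10.2%, 9.07 to 11.5%) and 100 of ConA+Veh (3.60%, 2.94 to 4.36%), a log2 ratio of 1.51 (1.17 to 1.85), with 2.13% in ConA+TCDD and 1.10% in Naïve. The T gate held 20.9% of ConA+FICZ cells (533) and 27.4% of ConA+Veh cells (761), a log2 ratio of −0.39 (−0.55 to −0.23). NK cells were 5.87% and 7.23%, with an interval that reached 0 (−0.62 to 0.01). B cells were 30.6% and 29.7%, macrophages 4.15% and 3.96% and monocytes 2.94% and 3.35%, each within counting error. The endothelial gate was 1.29% and 2.05% (−0.67, −1.33 to −0.02), and the granulocyte progenitor gate 0.352% and 0.828% (−1.23, −2.53 to −0.07).

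Erythroid cells were fewer in ConA+FICZ, with 6 cells (0.235%) against 64 (2.30%), so that hepatocyte and erythroid droplets weighed on the shares in opposite directions. Without both gates, neutrophils were 11.1% and 3.69%, T cells 22.7% and 28.1%, and B cells 33.2% and 30.5%. Without *S100a8* and *S100a9*, which were also counted in B cells, the neutrophil gate took 9.71% of ConA+FICZ and 3.27% of ConA+Veh cells. Ungated cells were 14.7% and 17.2%. Whether the share of a gate followed the number of such cells in the liver or their recovery on the gradient cannot be told apart with 1 library a side.

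**Figure D2:**
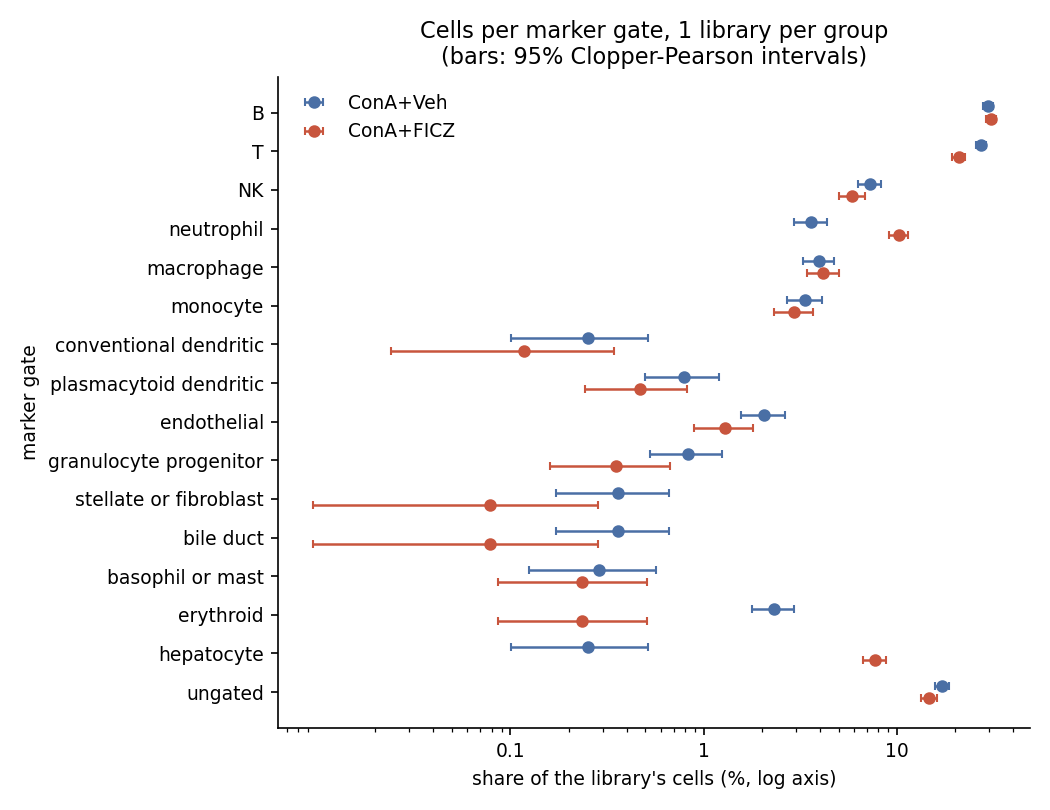
Share of each library's cells in the marker gates (log axis, bars 95% Clopper-Pearson intervals) for ConA+Veh (blue) and ConA+FICZ (red). Neutrophils are at 3.60% and 10.2%, hepatocyte droplets at 0.252% and 7.67%, erythroid cells at 2.30% and 0.235%, while the intervals of the B and macrophage gates overlap.

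Over all cells, 11 of 16 genes of the neutrophil granule and alarmin list were past the fold upward and 0 downward. The list had a median log2 ratio of 1.36, and 2.46% of all tested genes were past the fold upward. Its members *S100a8*, *S100a9*, *Retnlg* and *Mmp9* are also markers by which cells entered the neutrophil gate. The count over all cells thus partly restates the share of that gate. *Ltf*, the gene of the granule protein lactoferrin, went from 16.1 to 87.3 CPM (2.44, 2.27 to 2.63). Within the neutrophil gate the same 16 genes had 0 rises and 0 falls and a median of 0.04. There *S100a8* and *S100a9*, the alarmin genes, were somewhat lower in ConA+FICZ (log2 ratios −0.21 and −0.24), *Retnlg* was lower (−0.51), and *Padi4*, needed for neutrophil extracellular traps, was higher (0.95, 0.44 to 1.49). The difference over all cells was not found within the gate.

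In the neutrophil gate 40 of 1102 genes (3.63%) were past the fold upward and 7 (0.635%) downward, with a median log2 ratio of 0.13 over all tested genes. The gate held 689091 UMIs in ConA+FICZ and 259883 in ConA+Veh. The minimum of 100 summed UMIs thus let in genes high in ConA+FICZ more readily than genes high in ConA+Veh. The part of this in the counts and the median was not tested. The largest rise was *Stfa1*, a stefin A gene that encodes an inhibitor of cysteine cathepsins (GRCm38, chromosome 16, 36276951 to 36285373). It had 282 UMIs in 17 of 261 cells of ConA+FICZ (409 CPM), with 31.9% of them in 1 cell. In the 100 cells of ConA+Veh it had 0 UMIs. With these set to the floor of 3 counts the ratio was 35.5-fold, which is not a lower limit. Naïve neutrophils had 16 UMIs (329 CPM), all in 1 cell. Its relative *Stfa2l1* was at 929 and 712 CPM. *BC100530*, also a stefin A gene, fell from 797 to 181 CPM (log2 ratio −2.13), but 69.1% of its ConA+Veh UMIs lay in 1 cell, and without the leading cells the log2 ratio was −1.15. Stefin A genes are near-identical copies, and reads can be split between them.

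The other leading rises in neutrophils were spread over many cells. *Qsox1*, a sulfhydryl oxidase gene, rose from 88.5 to 370 CPM (2.06, 1.45 to 2.75) and was found in 131 cells of ConA+FICZ. *H2-Q7*, a nonclassical MHC class I gene, rose from 50.02 to 206 CPM (2.04, 1.22 to 2.99). *Mvp*, the major vault protein gene, was at 174 and 50.02 CPM (1.80), *Rasa2*, a Ras GTPase-activating protein gene, at 158 and 46.2 CPM (1.78), and the early activation antigen *Cd69* at 328 and 104 CPM (1.66, 1.08 to 2.29).

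Immediate early genes were mostly higher in ConA+FICZ neutrophils, with 14 of 16 above 0, 3 past the fold upward (*Cd69*, *Jun* and *Fos*) and a median of 0.45. Of all tested genes in this gate 3.63% were past the fold upward, and their median was 0.13. Other lists were shifted in this gate as well, with medians of 0.37 for the mitochondrial and 0.30 for the MHC class I genes. The heat shock list had −0.04 and the homing list 0.05. The larger UMI total of ConA+FICZ bears on which list members reached the minimum, and its part was not tested. *Fos* was at 996 and 443 CPM (1.17). The IL-1 and recruitment list had 9 of 10 genes above 0 and none past the fold, with a median of 0.40. Of its members, the neutrophil chemokine *Cxcl2* was at 17329 and 11371 CPM (0.61), the IL-6 family cytokine *Osm* at 643 and 358 CPM (0.85, 0.52 to 1.18), and *Il1b* at 2264 and 2763 CPM (−0.29). Metallothionein *Mt1* rose from 6 to 337 UMIs (4.40, 3.27 to 5.86), of which hepatocyte RNA accounted for 27.6%.

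Of the falls in neutrophils, *Hmox1*, which encodes heme oxygenase 1, went from 500 to 193 CPM (−1.37, −1.73 to −1.01). *Hmgb1*, a nuclear alarmin gene, went from 277 to 126 CPM (−1.13), and *Npm1*, the nucleophosmin gene, from 319 to 144 CPM (−1.15). *Ccl5* and *Prdx1* had 73.8% and 56.7% of their ConA+Veh UMIs in 1 cell, and without the leading cell of each library their log2 ratios were −0.48 and −0.88. The B list in this gate was at 119 CPM in ConA+Veh and 66.8 CPM in ConA+FICZ and the T list at 65.4 and 75.5 CPM. Their part in these falls was not tested.

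The macrophage gate was of like size in both libraries but its genes differed. Ungated cells also held macrophage markers, at 2902 CPM (3621 UMIs) in ConA+FICZ and 1626 CPM (2796 UMIs) in ConA+Veh. How many macrophages lay outside the gate was not tested. Of 1814 genes 32 (1.76%) were past the fold upward and 24 (1.32%) downward. *Pf4*, the gene of the chemokine CXCL4, had 17 UMIs in 5 of 110 cells of ConA+Veh (28.5 CPM). In ConA+FICZ it had 425 UMIs in 37 of 106 cells (707 CPM), a log2 ratio of 4.63 (3.94 to 5.43). The Naïve macrophage gate, of 12 cells, had 787 CPM. Since platelets also make *Pf4*, some of their other genes were counted after its rise was seen. *Ppbp* had 3 UMIs and *Gp9* and *Itga2b* had 0 in the ConA+FICZ macrophage gate. The part of platelet RNA in the rise was not tested. *Pf4* was also found in 11 of 75 monocyte-gate cells of ConA+FICZ (117 CPM) and in 2 of 93 of ConA+Veh (3.50 CPM).

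Other macrophage genes that rose were *Slfn4*, a schlafen gene of myeloid cells (188 against 56.9 CPM, 1.72), *Ms4a4a*, a membrane gene of resident and alternatively activated macrophages (283 against 88.7 CPM, 1.67), and *F10*, the gene of coagulation factor X (279 against 88.7 CPM, 1.66). The chemokine gene *Ccl24* rose from 167 to 494 CPM (1.56, 1.23 to 1.90) and the complement C5a receptor gene *C5ar1* from 181 to 412 CPM (1.19). *Aqp1* and *Fabp4* had 97.3% and 90.9% of their ConA+FICZ UMIs in 1 cell, and without the leading cells their log2 ratios were 0.05 and −0.52.

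*Il1b*, which encodes interleukin-1β, fell in macrophages from 760 to 279 CPM (−1.44, −1.71 to −1.18), *Ptgs2*, which encodes cyclooxygenase-2, from 177 to 53.2 CPM (−1.74, −2.36 to −1.15), and *Ccl5*, a chemokine for T cells, from 500 to 151 CPM (−1.73). The largest fall was that of the heat shock gene *Hspa1a*, from 236 to 19.96 CPM (−3.56, −4.55 to −2.71). *Rel*, an NF-κB subunit, fell from 152 to 64.9 CPM (−1.23) and the checkpoint ligand gene *Cd274* from 164 to 74.8 CPM (−1.13). *Tgif1* fell from 157 to 63.2 CPM (−1.32). *Cxcl3*, a neutrophil chemokine gene, rose from 53.6 to 128 CPM (1.26, 0.65 to 1.90). The IL-1 and recruitment list had 1 rise and 2 falls among 6 genes (median −0.64), and the chemokine list 2 rises and 1 fall among 14 (median 0.15). Of all tested genes in this gate 1.76% rose and 1.32% fell past the fold.

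Of the MHC class II list 6 of 7 genes were below 0 in macrophages, and *H2-Eb1* fell past the fold (−1.14), with a list median of −0.52. When every cell counted equally, 0 genes were past the fold and the median turned to 0.21, and when cells were thinned before gating 0 were past the fold with a median of −0.26. The polarization and scavenging list had 5 genes above 0 of 5 and none past the fold (median 0.88), *Arg1*, the arginase of alternatively activated macrophages, being at 2115 and 1145 CPM (0.89), and this median was −0.05 when cells were thinned to 1000 UMIs before gating. Markers of resident Kupffer cells (*Clec4f*, *Vsig4*, *Timd4*, *Marco*) were found in 6 of 102 ConA+Veh cells thinned to 1000 UMIs (5.88%, 2.19 to 12.4%). In ConA+FICZ they were found in 0 of 93 such cells (0 to 3.89%), a log2 ratio of −0.87 against the floor, and the intervals of the shares overlapped. Unthinned, they were found in 9 of 110 ConA+Veh cells (8.18%) and in 0 of 106 ConA+FICZ cells. The latter allows up to 2.83% of cells with such a UMI by the floor of 3 counts and up to 3.42% by the Clopper-Pearson interval. The complement genes *C1qa*, *C1qb* and *C1qc*, at least 2 of them, were found in 83.9% and 82.4% of cells thinned to 1000 UMIs. In the macrophage gate of ConA+FICZ the neutrophil list was at 349 CPM against 121 CPM in ConA+Veh and the granulocyte progenitor list at 223 against 53.6 CPM. Their part in these values was not tested.

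The interferon-γ-induced list had a median above 0 in each of the 5 gates. They include guanylate-binding proteins and immunity-related GTPases that attack intracellular microbes. Over all cells 19 of 21 were above 0, with 2 rises (where 2.46% of all tested genes rose), 0 falls and a median of 0.42. The medians were 0.53 in B (12 of 15 above 0), 0.54 in macrophage (8 of 10), 0.43 in NK (4 of 4), 0.42 in neutrophil (7 of 7) and 0.19 in T cells (9 of 15). The median of all tested genes was 0.13 in neutrophils and between −0.03 and 0.03 in the other gates. Past the fold upward were 4 genes of the list in B, 1 in macrophage and 1 in T cells. Of all tested genes 0.681%, 1.76% and 0.369% were so in these gates. In NK and neutrophil cells 0 genes of the list were past the fold. *Gbp2* was at 260 and 109 CPM over all cells (1.26, 1.18 to 1.33), 228 and 80.9 CPM in B cells (1.49) and 622 and 274 CPM in macrophages (1.18). *Irgm1* rose in B cells from 31.5 to 72.1 CPM (1.196). The chemokine gene *Cxcl9*, also of this list, was lower in macrophages (−0.81, −1.34 to −0.29). Type I interferon-stimulated genes had a median of 0.36 over all cells, with 22 of 25 above 0 and *Oas2* past the fold (1.27), and within gates medians between −0.08 in T and 0.26 in neutrophil cells.

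**Figure D3:**
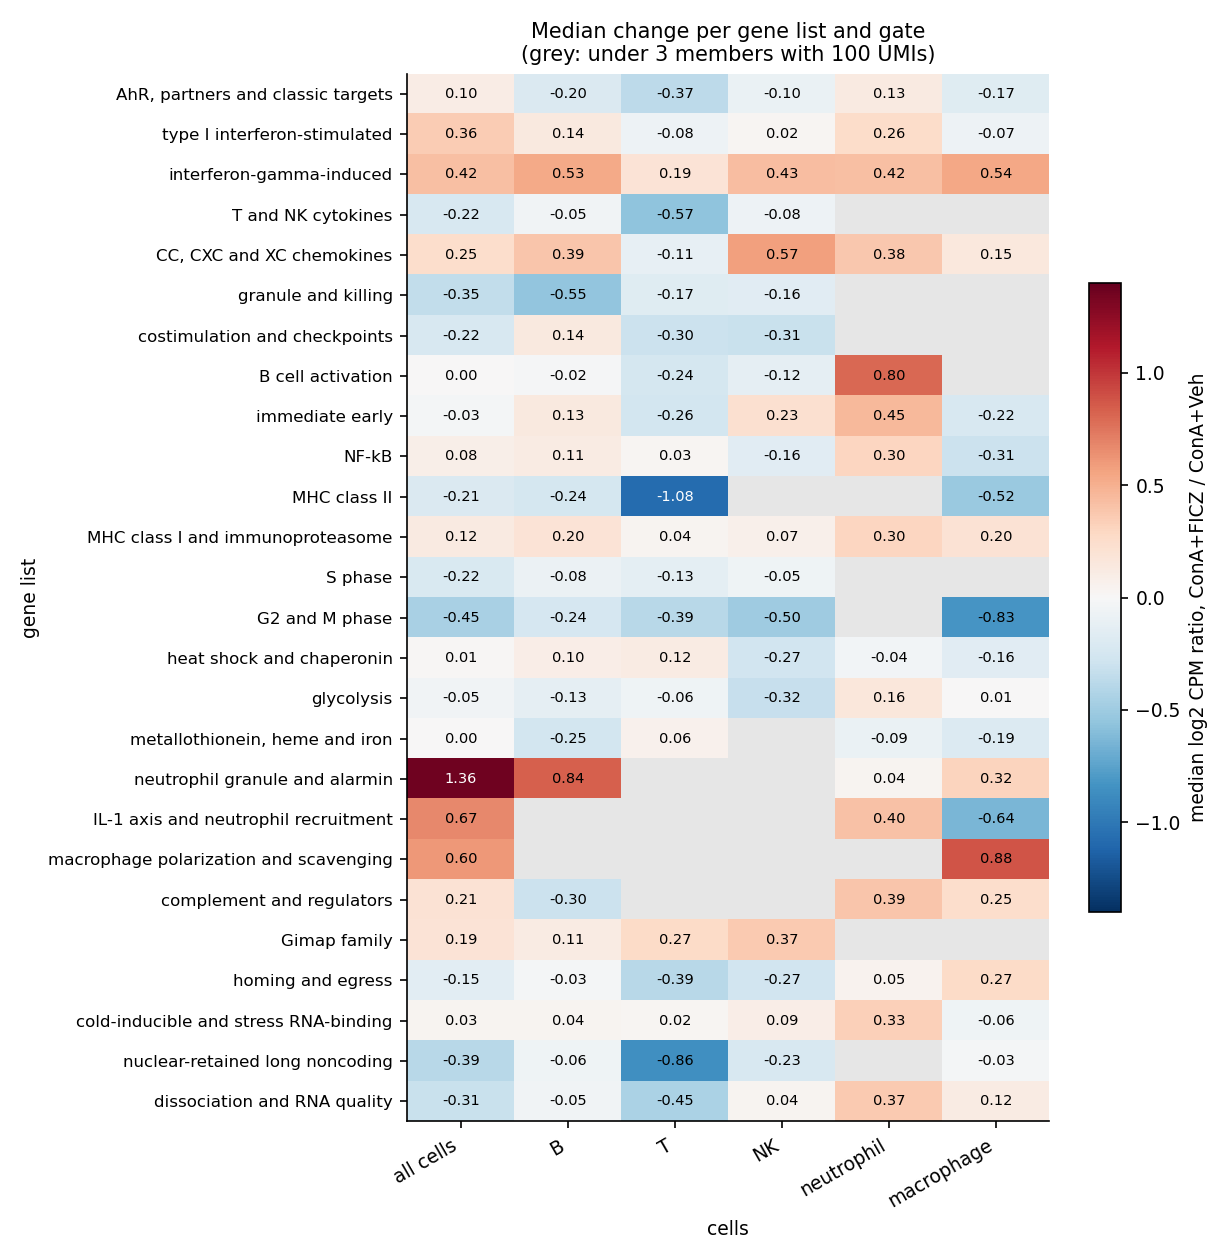
Colour and number give the median log2 CPM ratio of ConA+FICZ to ConA+Veh over the members of a gene list with at least 100 UMIs, for all cells and each gate (grey, fewer than 3 such members). The interferon-γ-induced row is above 0 in every column (0.19 to 0.54), and the G2 and M phase row is below 0 in every column shown (−0.24 to −0.83).

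Most mitotic genes had log2 ratios below 0 in T cells. Of 7858 genes in the T gate 29 (0.369%) were past the fold upward and 51 (0.649%) downward. Of the 25 genes of the G2 and M phase list 24 were below 0, with 1 past the fold (*Mki67*) and a median of −0.39. Without cells of under 200 genes or over 10% mitochondrial UMIs, 24 were below 0 and 0 past the fold. *Mki67*, the proliferation antigen Ki-67, fell from 319 to 151 CPM (−1.08, −1.18 to −0.98), and *Top2a*, a topoisomerase of dividing cells, was at 294 and 445 CPM (−0.60). S phase genes had a median of −0.13, with *Tyms*, which encodes thymidylate synthase, at 110 and 160 CPM (−0.54). With every cell thinned to 1000 UMIs, at least 2 of 7 mitosis genes were found in 14.6% of ConA+FICZ T cells (77 of 527) and 27.5% of ConA+Veh T cells (207 of 754), a log2 ratio of −0.91 (−1.31 to −0.53). Unthinned, the shares were 39.4% and 59.9%. B cells had 2.80% and 5.60% (−0.998, −1.82 to −0.21), and NK cells 2.88% and 5.32%, with an interval that included 0.

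Differences in the makeup of the T gate depended on the thinning of the cells. CD8 cells, with *Cd8a* or *Cd8b1* and no *Cd4* UMI, were 30.2% of thinned T cells in ConA+FICZ and 38.6% in ConA+Veh (−0.36, −0.64 to −0.07), where the same genes were found in 0.668% and 1.56% of B cells. Unthinned the shares were 46.2% and 51.6%, with an interval that included 0. *Foxp3*, the regulator of regulatory T cells, was found in 9 of 527 and 6 of 754 thinned cells, which did not differ beyond counting error, and unthinned in 4.13% and 1.71% (1.27, 0.22 to 2.38). Shares of *Cd4* cells (4.17% and 7.29%) changed direction with the depth of thinning.

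**Figure D4:**
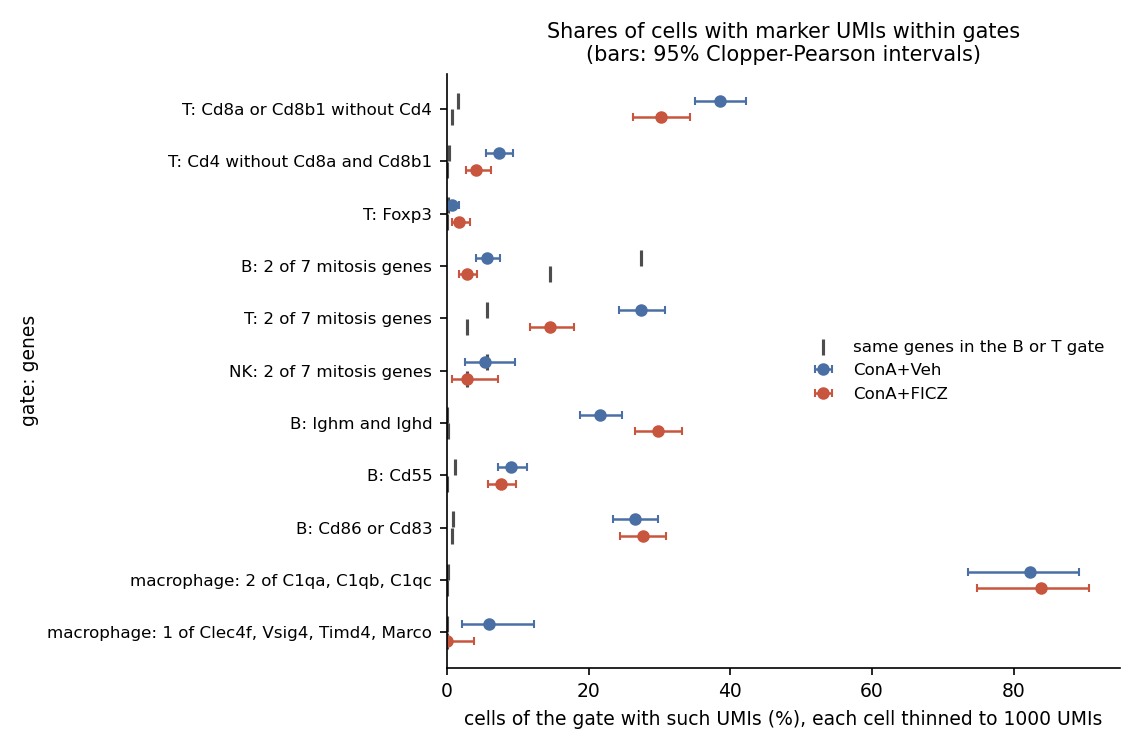
Share of cells of a gate that held the named UMIs after each cell was thinned to 1000 UMIs (bars 95% Clopper-Pearson intervals), for ConA+Veh (blue) and ConA+FICZ (red), with the same genes in a comparison gate (dark ticks, the B gate for T and NK cells, the T gate for B cells and macrophages). Mitosis genes are found in 14.6% of ConA+FICZ and 27.5% of ConA+Veh T cells.

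Of the cytokine list 7 of 9 genes were below 0 in T cells, with 0 rises, 3 falls (where 0.649% of all tested genes fell) and a median of −0.57. The list had 1 rise and 3 falls without low-quality cells, 1 rise and 2 falls with a median of −0.12 when cells were thinned to 1000 UMIs before gating, and 0 rises and 1 fall when every cell counted equally. *Il4*, the type 2 cytokine that NKT cells release early, fell from 176 UMIs in 34 cells (20.1 CPM) to 34 UMIs in 17 cells (4.96 CPM), a log2 ratio of −2.02 (−2.60 to −1.49). *Ifng*, the type 1 cytokine of this hepatitis, fell from 26.6 to 12.7 CPM (−1.07). *Il2* fell too (−1.81), but 89.4% of its ConA+Veh UMIs lay in 1 cell, and without the leading cells its log2 ratio was 0.64. *Il21*, a cytokine of helper T cells, was at 26.2 and 13.3 CPM (0.98, 0.64 to 1.33) and *Il10* at 21.7 and 16.0 CPM (0.44). The chemokine gene *Xcl1* fell from 130 to 55.6 CPM (−1.23, −1.403 to −1.06). Perforin, *Prf1*, was at 15.6 and 30.2 CPM (−0.95), while granzyme B, *Gzmb*, was at 737 and 772 CPM (−0.07).

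Metallothioneins, small zinc-binding proteins, rose in T cells. *Mt1* went from 690 UMIs in 127 cells (78.9 CPM) to 1371 UMIs in 196 cells (200 CPM), a log2 ratio of 1.34 (1.21 to 1.48), and *Mt2* from 14.8 to 43.3 CPM (1.55). By the estimate that includes *Ass1*, hepatocyte RNA accounted for 14.2% and 6.25% of their ConA+FICZ UMIs. *Hic1*, a transcriptional repressor gene, was at 23.2 and 9.38 CPM (1.31) and the unnamed gene *Gm20400* at 18.5 and 4.35 CPM (2.09). *Igkc*, the largest rise in the gate once hepatocyte genes and gate markers were left out, had 70.6% of its UMIs in 1 cell.

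Of the MHC class II list 7 of 7 genes were below 0 in the T gate (median −1.08). Past the fold were 4 of them, where 0.649% of all tested genes fell. T cells of mice are not known to make MHC class II in quantity. When every cell counted equally, 5 of 7 were below 0 and 2 past the fold (median −0.54). *H2-Ab1*, *H2-Aa*, *H2-Eb1* and *Cd74* had log2 ratios of −1.51, −1.46, −1.42 and −1.08. Macrophage markers in this gate went from 17.5 to 5.69 CPM and conventional dendritic markers from 11.1 to 4.81 CPM, while B markers went from 21.6 to 29.9 CPM. Their part in the fall was not tested.

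Homing genes had 16 of 17 members below 0 in T cells (median −0.39), among them the integrin gene *Itgb1* at 47.1 and 86.1 CPM (−0.87). The 13 mitochondrial genes were all below 0 in T cells (median −0.45), and cells with under 200 genes or over 10% mitochondrial UMIs made up 8.44% of the T gate in ConA+FICZ and 19.2% in ConA+Veh. Without those cells the number of falls in T went from 51 to 27, the homing median to −0.18 and the median of the nuclear long noncoding RNAs, with *Neat1* and *Malat1*, from −0.86 to −0.40, but that of the mitotic list stayed at −0.38. When every cell counted equally, 357 genes fell in T.

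B cells were the largest gate, and most of their falls were immunoglobulin segments. Of 6465 genes 44 (0.681%) were past the fold upward and 54 (0.835%) downward, and 39 of the 54 falls were variable segments of immunoglobulin. *Fos* rose from 41.0 to 117 CPM (1.52, 1.28 to 1.76) and was found in 216 of 782 cells against 105 of 826. *Hsh2d*, an adaptor gene of lymphocyte activation, rose from 8.03 to 23.8 CPM (1.57, 1.03 to 2.14). *Myc*, which drives growth, rose from 93.2 to 191 CPM (1.03). *Tfap4*, a target of Myc, was at 16.8 and 6.997 CPM (1.26), and the metabolic genes *Etfdh* and *Ppcdc* at 21.3 and 9.06 CPM (1.24) and 25.2 and 10.9 CPM (1.21).

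Of the B cell activation list 7 of 16 genes were above 0, with *Myc* past the fold and a median of −0.02. *Nr4a1*, a gene induced by the antigen receptor, was at 94.1 and 151 CPM (−0.68, −0.86 to −0.50). *Cd86* or *Cd83*, the costimulatory and activation markers, were found in 27.6% and 26.6% of thinned cells (log2 ratio 0.06, −0.23 to 0.34), and *Cd55*, a complement regulator gene, in 7.61% and 9.11%. *Ighm* and *Ighd* together were found in 29.8% and 21.6% (0.46, 0.17 to 0.76), but in 74.6% and 69.7% without thinning, where the interval included 0. MHC class II genes had 10 of 11 members below 0 and none past the fold (median −0.24), with *H2-Aa* at 2610 and 3422 CPM (−0.39).

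A pair of histone genes was among the largest falls in B cells, *Hist1h2ab* from 29.2 to 7.26 CPM (−2.01, −2.61 to −1.45) and *Hist1h4d* from 42.6 to 11.6 CPM (−1.88). *Hist1h2ab* fell in T cells too, from 32.6 to 12.0 CPM (−1.45, −1.82 to −1.09). *Gzmb* fell in the B gate from 69.4 to 18.1 CPM (−1.93, −2.30 to −1.58), where T markers were at 28.8 CPM in ConA+FICZ and 53.5 CPM in ConA+Veh, and granulocyte progenitor markers at 0.227 and 56.8 CPM. *Ifitm1* and *Cxcl2* had 60.9% and 53.1% of their ConA+Veh UMIs in 1 cell of that gate. *Ly6k* fell from 20.2 to 6.35 CPM (−1.67). The neutrophil list was at 190 CPM in B cells of ConA+FICZ and 87.3 CPM in those of ConA+Veh, with *S100a9* past the fold (1.4). The part of such RNA in these values was not tested.

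NK cells had few genes past the fold, 6 of 1685 (0.356%) upward and 12 (0.712%) downward. *Fos* rose from 27 UMIs in 20 of 201 cells (36.3 CPM) to 149 UMIs in 50 of 150 cells (286 CPM), a log2 ratio of 2.98 (2.38 to 3.63). *Zfp36*, which encodes a protein that destabilizes cytokine mRNA, rose from 140 to 334 CPM (1.26) and the phosphatase gene *Dusp1* from 133 to 269 CPM (1.01). Other immediate early genes went the other way, since *Fosl2* fell from 210 to 99.8 CPM (−1.07) and *Nr4a1* was at 169 and 306 CPM (−0.86). The list had 11 of 17 genes above 0 and a median of 0.23. *Ccl3*, a chemokine gene of activated NK cells, rose from 286 to 583 CPM (1.03, 0.77 to 1.29). *Coro2a* and *Rasal3* rose with ratios of 1.18 and 1.17.

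*Gclm*, which encodes the modifier subunit of the enzyme that limits glutathione synthesis, fell in NK cells from 543 to 230 CPM (−1.24, −1.54 to −0.94). *Mycbp2* and *Nrarp* had log2 ratios of −1.17 and −1.09, *4930523C07Rik* and *AA467197* of −1.43 and −1.34, and the integrin gene *Itgb1* fell from 390 to 192 CPM (−1.02). Of the 9 genes of the granule and killing list none was past the fold, 8 being below 0 with a median of −0.16. *Gzma* was at 21163 and 21546 CPM (−0.03), and *Prf1* was at 1029 and 1582 CPM (−0.62, −0.77 to −0.47). The cold-inducible RNA-binding gene *Rbm3* was higher in NK (0.83), T (0.79), B (0.56) and macrophage cells (0.96), below the fold in each.

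**Figure D5:**
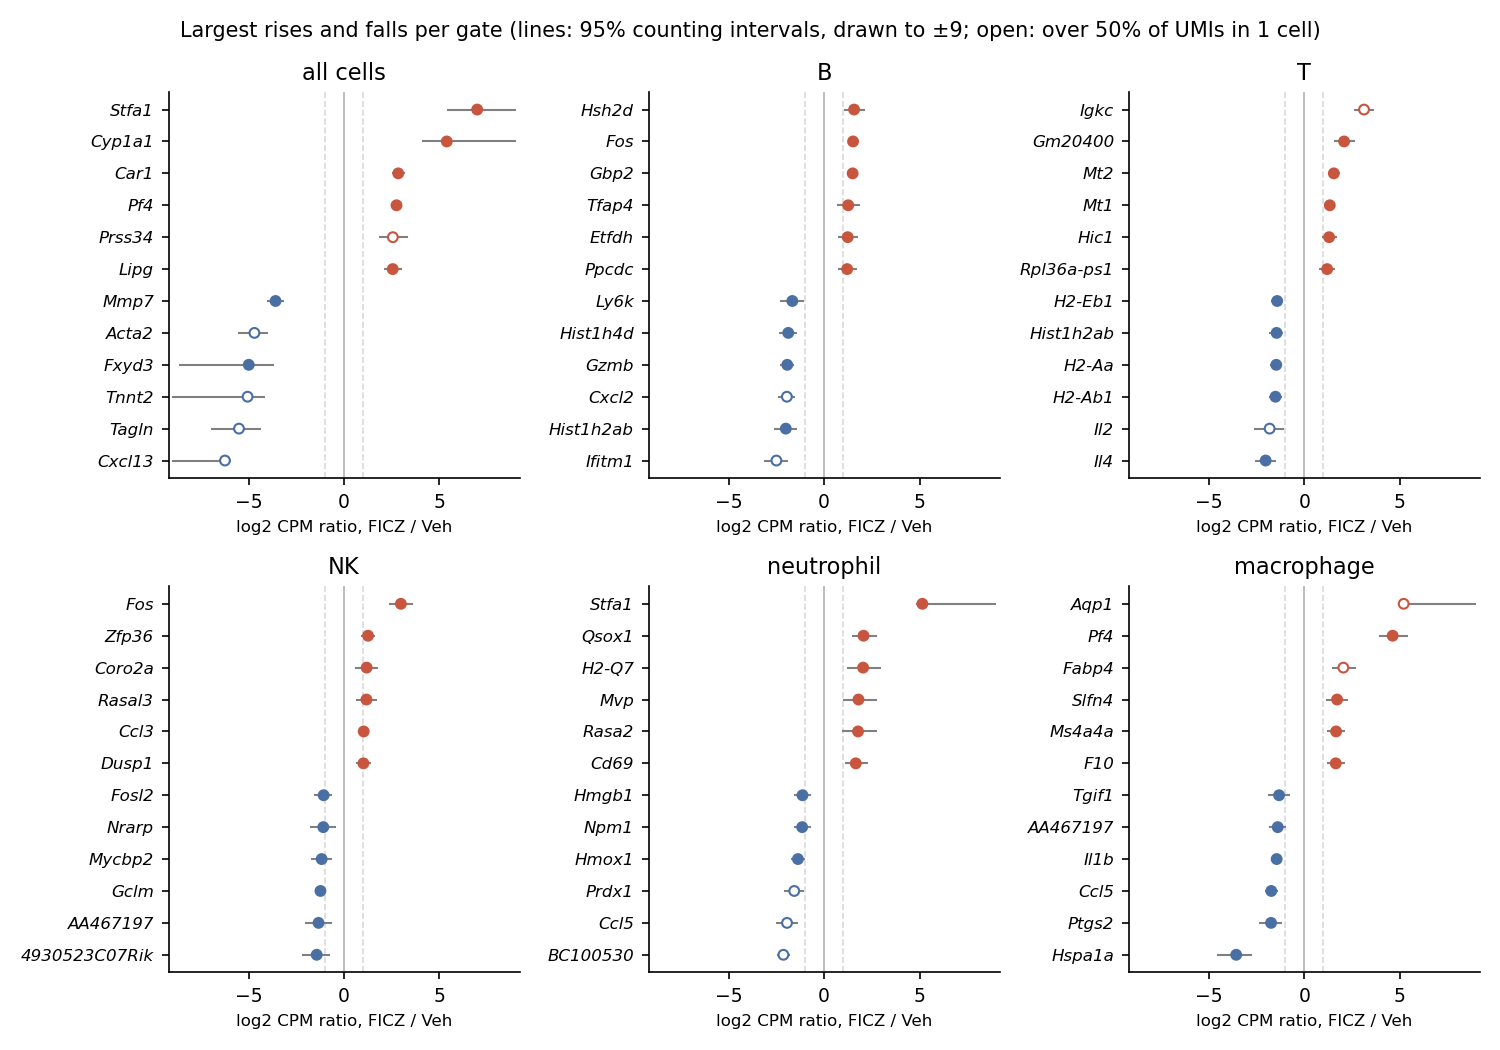
The 6 largest rises and 6 largest falls of the log2 CPM ratio (x axis) over all cells and in each gate, with 95% counting intervals drawn to ±9, dashed lines at −1 and 1, and open points for genes with over 50% of their UMIs in 1 cell of the library where they were higher. Stfa1 (neutrophil, 5.15 against the floor), Pf4 (macrophage, 4.63) and Fos (NK, 2.98) are spread over several cells, while Aqp1 and Igkc rest on 1 cell.

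The remaining leading genes over all cells lay mostly in few cells, *Lipg* excepted. *Mmp7* and *Fxyd3*, epithelial genes, fell from 652 to 45 UMIs and from 115 to 2 UMIs, where the bile duct gate held 10 cells of ConA+Veh and 2 of ConA+FICZ. *Tagln* and *Acta2*, contractile genes of smooth muscle and stellate cells, fell from 328 to 6 UMIs and from 468 to 15 UMIs, with 54.0% and 54.5% of the ConA+Veh UMIs in 1 cell. *Cxcl13* had 273 UMIs in ConA+Veh, 98.5% of them in 1 cell, and 0 in ConA+FICZ, and all 120 UMIs of *Tnnt2* in ConA+Veh lay in 1 cell. *Lipg*, which encodes endothelial lipase, rose from 46 UMIs in 28 cells to 224 UMIs in 104 cells (2.55, 2.09 to 3.04). *Prss34*, a protease gene of basophils, had 93 UMIs in 4 cells of ConA+FICZ and 19 in 2 cells of ConA+Veh. *Car1*, an erythroid and basophil carbonic anhydrase, rose from 87 UMIs in 18 cells to 518 UMIs in 8 cells, but its log2 ratio turned from 2.84 to −0.0084 when every cell counted equally.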

How the data were processed

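Liver mononuclear cells of 4 libraries, 1 per group, were measured, and 2 of them were compared. Cell Ranger 3.0.2 was run by the authors on the mm10 genome, and the deposited values are raw UMI counts of 31053 genes in each barcode, not normalized. Cells and genes were then handled as the text states, with 29 gene lists. The ratio of CPM or shares had an exact binomial interval, and a share a Clopper-Pearson interval, all at 95%. A count under 3 was set to a floor of 3 counts for ratios. Intervals and floors cover counting error only. The intervals of CPM and of its ratios treat each UMI as independent, so that they are too narrow where the UMIs of a gene lie in few cells. The UMIs of a leukocyte gate ranged from 259883 (neutrophil, ConA+Veh) to 8743959 (T, ConA+Veh). No doublet caller was run. Instead cells above the 98th percentile of UMIs were left out as an alternative.

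Hepatocyte RNA in a gate was estimated as its list UMIs, *Ass1* included, divided by the list's share in the hepatocyte gate. ConA+Veh had under 20 hepatocyte-gate cells, so that the 4 libraries were pooled for it. Genes named are the 6 largest rises and 6 largest falls over all cells and per gate (without immunoglobulin and T cell receptor segments, gate markers, hepatocyte, erythroid and sex-linked lists, and genes with 20% or more accounted for), the AhR list, and members of the lists with the largest rise or fall. Other list members, the platelet genes, *Stfa2l1* and *S100a9* were chosen after their values were seen. Members and lists were chosen with earlier results of these data known. For shares of cells with a UMI, cells were thinned to 1000 UMIs. Ratios were tested on simulated data with 200 genes changed 4-fold, drawn without clustering of UMIs in cells. Figures were drawn with matplotlib 3.10.9, tables made with pandas 2.3.3 and intervals computed with scipy 1.17.1, all on numpy 2.4.6 under Python 3.11.15. Some genes of the lists, and a marker share in T cells, are not reported here.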

Additional observations from a re-analysis of the deposited data

How the results depend on the processing

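No paired analysis was possible because each group had 1 library. Of 80 recomputed log2 ratios of gate shares 79 moved by less than their counting interval, and the T gate went to −0.58 when cells were thinned to 1000 UMIs before gating. Counts of genes past the fold, as rises and falls, depended on the minimum. With at least 30 UMIs they were 477 and 308 over all cells, 154 and 139 in B, 100 and 181 in T, 76 and 149 in NK, 256 and 47 in neutrophil and 187 and 116 in macrophage cells. With no minimum they were 991 and 730, 437 and 376, 403 and 473, 485 and 509, 521 and 343, and 678 and 501. With at least 300 UMIs they were 132 and 65, 18 and 24, 8 and 24, 1 and 2, 6 and 1, and 8 and 6. These follow from the genes each minimum lets in. When every cell counted equally they were 462 and 431 over all cells, 45 and 357 in T, 10 and 33 in NK, 71 and 35 in neutrophil and 61 and 40 in macrophage cells, with 143 falls in B. Subtracting hepatocyte RNA left 130 rises over all cells, 29 in B and 19 in T, and leaving out the hepatocyte and erythroid gates left 156 over all cells. Thinning before gating gave 27 rises in B, 10 rises and 96 falls in T and 20 rises in macrophages. Falls in T were 27 without cells of under 200 genes or over 10% mitochondrial UMIs and 82 without cells above the 98th percentile, and a lead of 2 markers gave 11 falls in neutrophils. The cause of these changes was not tested.

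Without *Ass1* the hepatocyte list had log2 ratios of 4.19 over all cells, 2.28 in B, 2.81 in T and 1.45 in macrophage cells, and with the hepatocyte gates of all 4 libraries pooled its RNA was 2.31% of all ConA+FICZ UMIs, 0.322% in B, 0.149% in T and 0.706% in neutrophils. The share of *Cd4* cells turned to 0.040 with 500 UMIs and was −0.054 unthinned. With 500 UMIs the B mitosis share was −1.92, and *Ighm* with *Ighd* was 0.10 unthinned. List medians moved to −1.04 (G2 and M phase, all cells), 0.21 (MHC class II, macrophage) and 0.42 (polarization, macrophage) when every cell counted equally. Thinned before gating, they were −1.67 (MHC class II, T), −1.25 (long noncoding, T), −0.74 (mitochondrial, T) and −0.048 (polarization, macrophage), and the long noncoding median was −0.40 without low-quality cells. Of 1020 recomputed ratios of named genes 7 changed sign and another 64 moved beyond their counting interval. The minimums of 30, 1 and 300 UMIs, with 72 of these ratios each, select genes only and could not change a ratio. *Fabp4* in macrophages went to −0.36 with a lead of 2 markers, −0.31 with cells counted equally and −0.52 without its leading cells. *Il2* in T went to 0.62 when thinned and 0.64 without its leading cells, *Car1* to −0.0084 with cells counted equally and *Tnnt2* to 0.27 without its leading cells. Leaving out the hepatocyte and erythroid gates, leading cells, *Ass1* or the S100 genes, and the list alternatives, were chosen after seeing the data. Depth limits the NK, neutrophil and macrophage gates, where 1685, 1102 and 1814 genes had 100 UMIs.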

Other observations

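Over all cells 40 of 119 tested immunoglobulin segments were past the fold downward and 10 upward, where 1.23% and 2.46% of all tested genes were. Of 34 T cell receptor segments 2 were past it downward and 1 upward. *Ighv1-12* had 29 UMIs in ConA+Veh and 1275 in ConA+FICZ, and *Igkv3-4* had 1116 and 6288. *Ighv6-3* had 1573 and 49, *Ighv3-6* had 2838 and 225, and *Igkv1-135* had 7179 and 927. They were picked after their values were seen.

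Within the hepatocyte gate the mix of hepatocyte genes also differed, although ConA+Veh held 7 droplets there. Of every 1000 list UMIs, *Saa2* gave 124 in ConA+FICZ, 51.4 in ConA+Veh and 0.653 in Naïve. *Alb*, the albumin gene, gave 77.8, 168 and 69.6, and *Fabp1*, a fatty acid-binding protein gene of liver, gave 36.9, 7.67 and 81.4. *Cyp1a2*, the hepatocyte CYP1 gene, had 9 UMIs over all cells of Naïve and 0 in each ConA library. In the Naïve hepatocyte gate it gave 0.163 of every 1000 list UMIs.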
